A study of Saccharomyces cerevisiae with 12 samples.

Results

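The comparison described here set sac3∆ budding yeast (Saccharomyces cerevisiae) against the same deletion strain with SAC3 restored from a plasmid. It used 6 of the 12 RNA sequencing samples of the series, 3 per group. All 12 samples carried a pRS315 plasmid, a low-copy vector selected by growth without leucine. The group called wild type was a sac3∆ strain with pRS315 13MYC-SAC3, so its SAC3 came from the plasmid and was tagged. The sac3∆ group carried the empty vector. Direct contrasts were also made with R288D, a sac3∆ strain with plasmid Sac3 carrying that substitution, and with cdk8∆, a strain with native SAC3 and the empty vector. The sample titles name the 13MYC tag for wild type but not for R288D. Cells were untreated and were harvested in growth in synthetic medium lacking leucine. Nothing in the labels says whether replicates were separate cultures or transformants, so p-values measure only the spread between these samples, which may be technical.

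Values were RPKM, reads per kilobase of exon per M reads (M for mega), as deposited. The table holds 7126 features, and 6124 of them averaged 1 RPKM or more across all 12 libraries and entered the test. Changes are differences of log2(RPKM + 1), given with the limma standard error, and this scale understates the change of scarce transcripts. A feature was called when its limma adjusted p was under 0.05. Depth recovered from the values was 21.29, 16.29 and 17.92 M reads in wild type and 17.24, 19.87 and 17.4 M reads in sac3∆. In a principal component analysis of the 12 samples, component 1 held 58.0% of the variance and set cdk8∆ apart. Component 2 held 22.0% and set the 3 wild type samples apart from all others.

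TREX-2 is a complex at the inner face of the nuclear pore that couples transcription to mRNA export. Sac3 is its scaffold, and Thp1, Cdc31, Sus1 and Sem1 assemble on it. Sac3 also contacts Mediator, the coactivator that bridges gene-specific activators and RNA polymerase II.

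SAC3 (YDR159W, R64 chromosome IV, 771877 to 775782) was measured at 51.3, 53.5 and 48.9 RPKM in wild type. The sac3∆ samples read 0.015, 0.0931 and 0.0294 RPKM, so the deletion was visible in every library. In cdk8∆, where SAC3 is native, it stood at 33.6, 33.8 and 33.1 RPKM, below all 3 plasmid-borne wild type values. In both groups the a-factor genes MFA1 and MFA2 and the receptor gene STE2 were far above the alpha-factor genes and STE3, the pattern of mating type a cells. The lesser a-specific gene ASG7 (13.4 to 15.1 RPKM in wild type) was no higher than the alpha-agglutinin gene SAG1 (14.1 to 15.4 RPKM). STE3, the a-factor receptor of alpha cells, read 7.44 to 8.95 RPKM in wild type and 6.41 to 8.59 RPKM in sac3∆. STE2, the alpha-factor receptor of a cells, read 302 to 317 and 598 to 640 RPKM.

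A large share of the transcriptome differed between sac3∆ and wild type by small amounts. Of the 6124 features, 3156 were called (51.5%), 1681 higher (27.4%) and 1475 lower (24.1%) in sac3∆. The shares higher and lower are the background for every count of list members against wild type that follows. The median size of a called change was 0.37 on the log2 scale. Calls of at least 2-fold numbered 133 (2.17% of those tested), 75 higher and 58 lower. For 3631 features (59.3%) the 3 sac3∆ values all lay beyond the 3 wild type values. The balance of directions moved with the scaling: 53.3% of calls were higher as deposited, 37.8% with sample medians set equal, 48.6% after quantile normalization and 76.9% with library sizes left unscaled. The median change of all tested features moved from 0.04 as deposited to 0.19 without scaling, so small changes are to be read against that shift. In RNA from whole cultures, a change in the share of cells in a given state and a change in RNA per cell cannot be told apart.

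**Figure D1:**
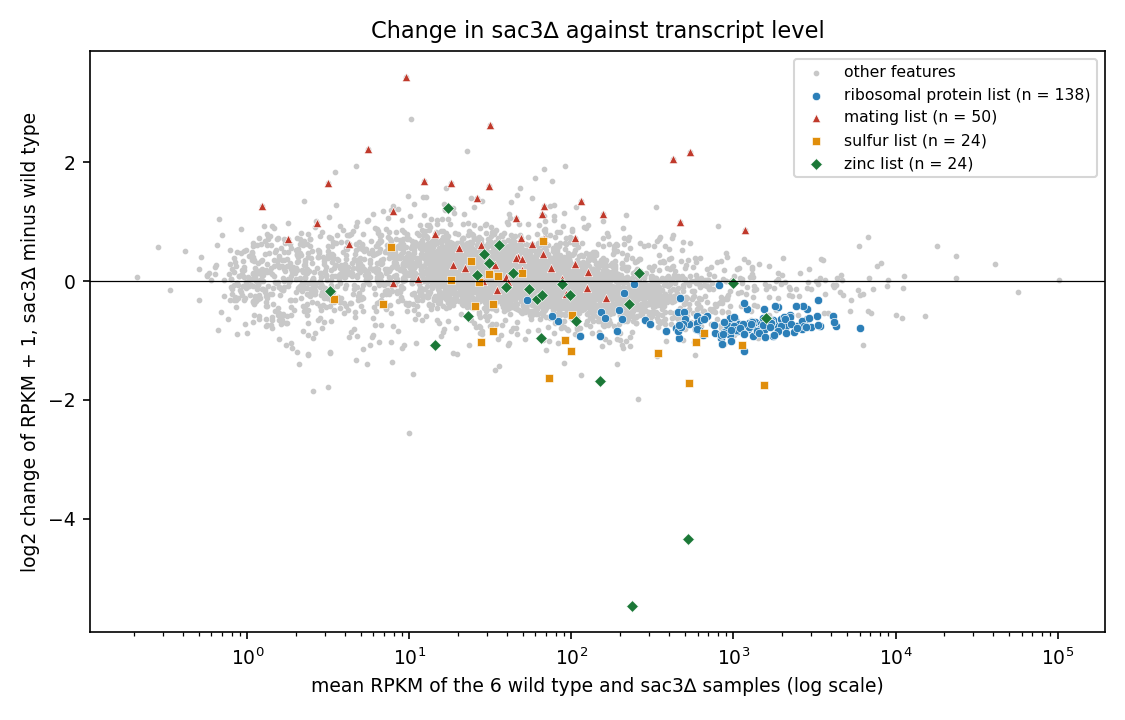
The log2 change of RPKM + 1 in sac3∆ (vertical axis) against the mean RPKM of the 6 samples (horizontal log axis), 1 point per tested feature without SAC3. The ribosomal protein list lies below 0 at high levels, and the zinc genes ZPS1 at -5.47 and ZRT1 at -4.35 have the largest falls.

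The direction of change moved with transcript level and length. Among 5655 protein-coding genes, 1642 rose and 1418 fell. In the class of 10 to under 30 RPKM, 44.4% rose and 7.93% fell. At 300 RPKM and above, 8.46% rose and 65.9% fell, and without the ribosomal protein genes 11.7% rose and 53.8% fell. Within the class of 10 to under 30 RPKM, 27.9% of genes under 1000 bases rose, as did 46.6% of those of 1000 to under 2000 bases and 59.8% of longer ones. At 100 to under 300 RPKM the 3 length classes were closer, with 10.5%, 13.8% and 16% rising and 46.4%, 54.6% and 50% falling. Genes with introns fell in 56.9% of cases (145 of 255) and genes without in 23.6% (1273 of 5400). With ribosomal protein genes left out, 35.2% of intron-containing genes fell (58 of 165) and 22.9% of the others (1227 of 5352). The part of level and length in the results on gene groups was not tested.

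**Figure D2:**
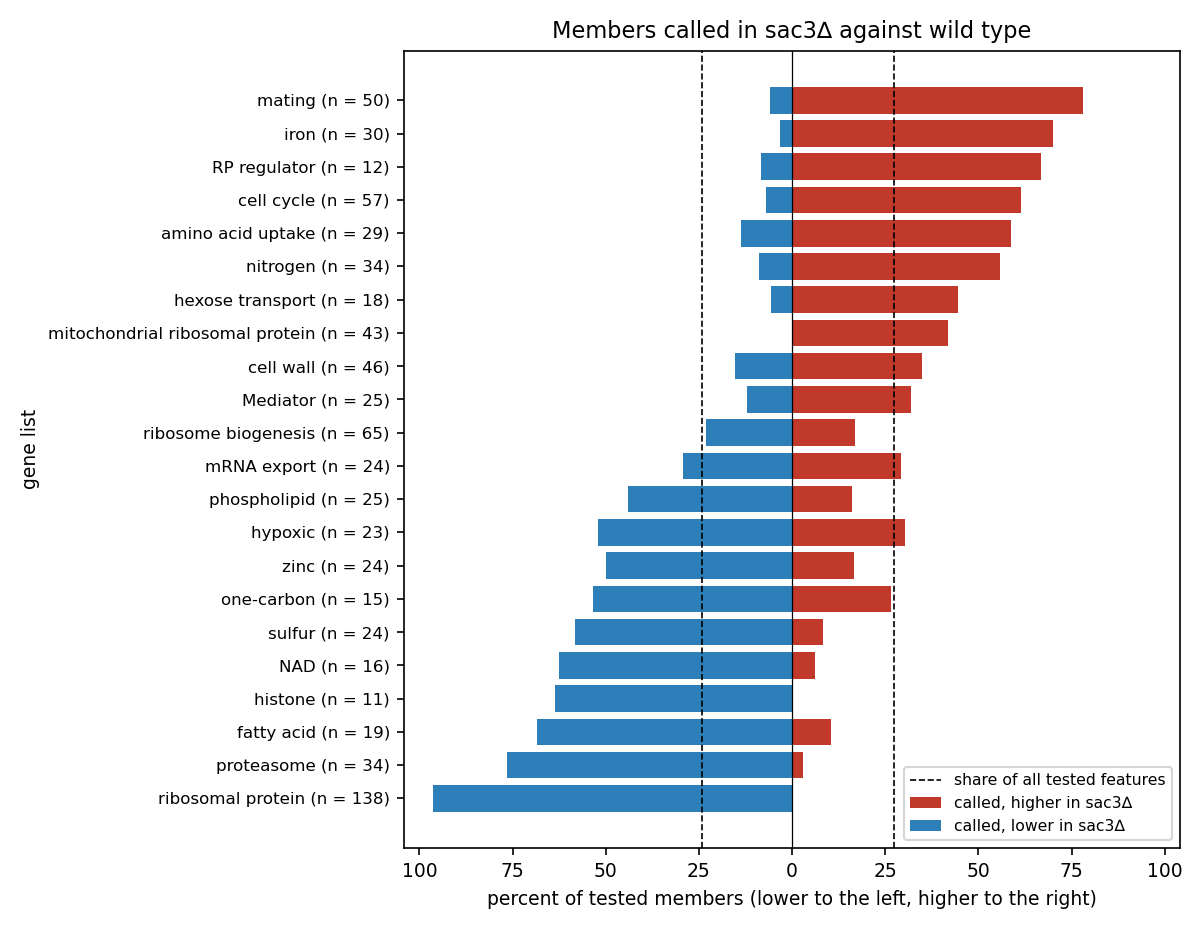
The percent of each list's tested members called higher (right) or lower (left) in sac3∆, with dashed lines at the shares of all tested features, 27.4% and 24.1%. The mating list reaches furthest to the right and the ribosomal protein list furthest to the left.

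Zinc genes gave the largest falls. Zap1 is the activator that senses zinc in yeast and switches on uptake transporters and zinc-sparing enzymes when zinc is scarce. It binds a zinc response element, read as ACCTT, any base, then AAGGT. Only exact matches were counted, so any site that departs from this reading was missed. Searched on both strands in the 500 bases before the annotated start, this element lay upstream of 9 of 5988 protein-coding genes (0.15%) and of 2 of the 24 zinc genes. Those were ZRT1, which fell, and ZRG17, which rose, and both windows are shown so that the identical elements can be compared. Both are from the R64 reference genome, with the element in capitals, on the gene's own strand. The ZRT1 window is chrVII:20729-20829 (plus strand), 204 bases before the start, and the ZRG17 window is chrXIV:699460-699560 (minus strand), 84 bases before it.
ZRT1: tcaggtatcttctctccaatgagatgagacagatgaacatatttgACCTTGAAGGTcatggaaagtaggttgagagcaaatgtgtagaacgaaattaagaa
ZRG17: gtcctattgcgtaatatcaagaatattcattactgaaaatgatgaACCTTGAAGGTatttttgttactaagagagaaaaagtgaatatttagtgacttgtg

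ZRT1 (YGL255W, chromosome VII, 20978 to 22108), the high-affinity zinc uptake transporter, read 989, 1033 and 957 RPKM in wild type and 49.7, 44 and 50.1 RPKM in sac3∆. The groups did not overlap, and the change was -4.35 ± 0.07 on the log2 scale (limma adjusted p = 1.68e-12). ZPS1 (YOL154W, chromosome XV), a cell wall protein of the zinc response, read 467, 479 and 445 RPKM against 8.89, 9.97 and 9.59 RPKM. Its change of -5.47 ± 0.14 (limma adjusted p = 1.95e-10) was the largest fall of any called gene next to SAC3 itself. ADH4, the alcohol dehydrogenase made when zinc is low, read 220, 258 and 214 RPKM against 75.1, 69.7 and 67.3 RPKM, a change of -1.69 ± 0.07. ZAP1 itself read 26.6, 29.5 and 27.9 RPKM against 18.3, 17.7 and 18.8 RPKM, a change of -0.59 ± 0.06 with no overlap.

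Of the 24 zinc genes 12 fell, beside 24.1% of all features, and 4 rose, beside 27.4%, with a median change of -0.20 against 0.04 over all features, and with library sizes unscaled 9 fell and 7 rose. Falls were also called for the vacuolar zinc exporter ZRT3 (-0.67), the membrane receptor genes IZH4 (-1.07) and IZH2 (-0.95) and the peroxiredoxin TSA1 (-0.61), which lost its call after quantile normalization (-0.08). The risers were the riboflavin transporter MCH5, the repressor NRG2 (0.61), ZRG17 of an endoplasmic reticulum zinc transporter (0.45) and ZRG8 (0.31). MCH5 read 8.78, 11.4 and 9.46 RPKM in wild type and 23.2, 25.4 and 24.8 RPKM in sac3∆, a rise of 1.23 ± 0.09 (limma adjusted p = 6.58e-07). Genes described as targets of the same activator moved in both directions.

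**Figure D3:**
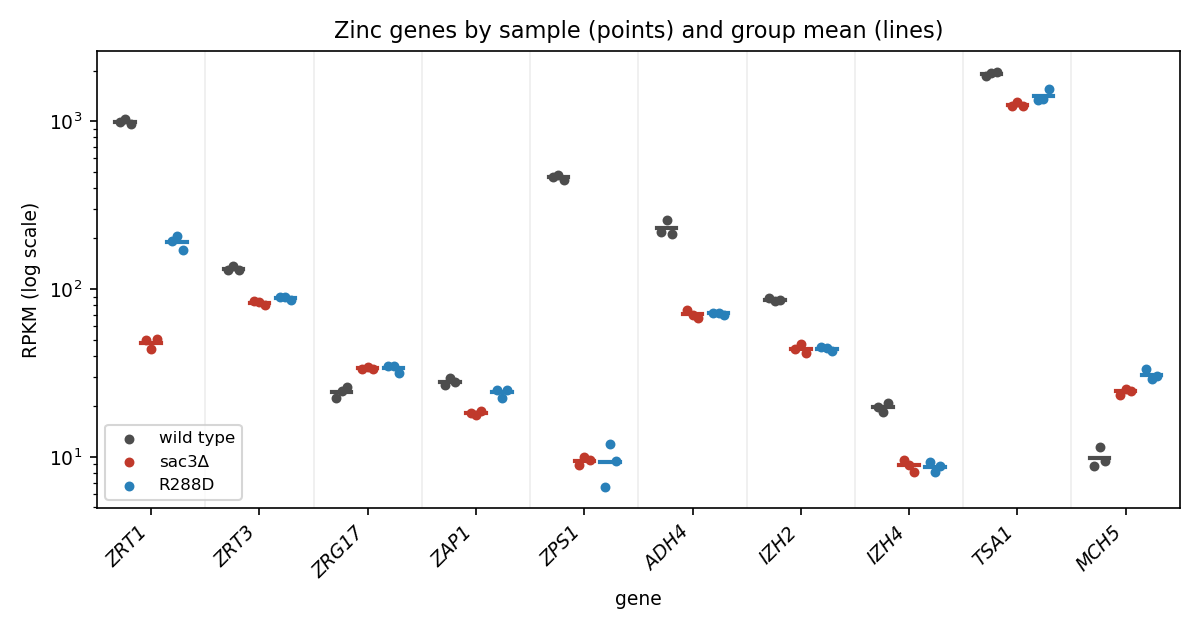
RPKM (log axis) of 10 zinc genes in wild type, sac3∆ and R288D, points for samples and lines for group means. ZRT1 stands at 957 to 1033 RPKM in wild type, 171 to 207 in R288D and 44 to 50.1 in sac3∆, while ZPS1 is low in both mutants.

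COS12, near the left end of chromosome VII at 2790 to 3932, read 19.5, 17.2 and 16.7 RPKM in wild type and 1.74, 2.64 and 2.21 RPKM in sac3∆. Its change of -2.56 ± 0.12 (limma adjusted p = 3.69e-08) ranked after ZPS1 and ZRT1 among genes with a standard symbol. COS12 belongs to a family of membrane proteins encoded near chromosome ends, of whose 8 tested members 3 rose and 1 fell (2 and 2 with sample medians set equal). ADH4 and ZRT1 lie on the same arm, at 15159 and 20978. VEL1 (YGL258W, -0.17) and MNT2 (YGL257C, -0.10), numbered next to ADH4 (YGL256W) on that arm, did not pass. Of genes within 10000 bases of a chromosome end 28% rose and 20% fell, at 10000 to under 20000 bases 27.7% rose and 19.1% fell, and beyond 50000 bases 29.1% rose and 25.2% fell. The part of position in these changes was not tested.

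Mating genes gave the largest rises. In haploid yeast, pheromone from the opposite mating type acts on a receptor, a heterotrimeric G protein and a kinase cascade that ends at the activator Ste12. Ste12 binds the pheromone response element TGAAACA and raises genes for agglutination, cell cycle arrest and fusion. Of 50 mating genes, 39 rose and 3 fell, with a median change of 0.67 (34 to 42 rose under the other scalings). The element, on either strand, lay in the 500 bases upstream of 721 of 5988 genes (12%) and of 32 of the 50 mating genes (64%), 28 of them among the 39 that rose (71.8%). PRM1, FUS1 and AGA1 are shown as 3 strongly risen genes with different arrangements of the element: 3 in a row, 2 and 1. The windows are R64 chrXIV:110691-110809, chrIII:71571-71694 and chrXIV:703452-703548, all on the plus strand, with the element in capitals as read on that strand.
PRM1: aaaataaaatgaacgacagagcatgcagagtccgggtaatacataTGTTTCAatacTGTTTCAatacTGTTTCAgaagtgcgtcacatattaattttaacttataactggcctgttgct
FUS1: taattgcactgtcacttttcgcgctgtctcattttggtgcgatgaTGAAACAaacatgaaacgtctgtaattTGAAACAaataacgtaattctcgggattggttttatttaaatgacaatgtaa
AGA1: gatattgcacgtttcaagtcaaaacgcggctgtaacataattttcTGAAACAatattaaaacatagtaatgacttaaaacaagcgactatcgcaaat

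Of the 4 pheromone genes all rose as deposited, and 3 rose with sample medians set equal or after quantile normalization; both alpha-factor genes were scarce, at 0.761 to 7.28 RPKM. MFA1, encoding a-factor, read 189, 170 and 219 RPKM in wild type and 619, 968 and 1091 RPKM in sac3∆, a rise of 2.17 ± 0.21 (limma adjusted p = 5.32e-06). The sac3∆ values spread more than those of most genes, yet the lowest was well above the highest of wild type. MFA2, the other a-factor gene, read 938, 695 and 830 RPKM against 1098, 1785 and 1678 RPKM, a rise of 0.87 ± 0.20. Among 8 genes for processing and secretion 5 rose and 2 fell (5 and 0 with library sizes unscaled). BAR1, the protease that degrades alpha-factor, read 96.7, 97.3 and 98.4 RPKM against 206, 215 and 223 RPKM, a rise of 1.13 ± 0.04. STE2 rose by 0.99 ± 0.06, and STE3, the other receptor gene, did not pass.

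Of 19 genes of the G protein and kinase cascade 13 rose and 1 fell. With sample medians set equal the counts were 9 and 2, after quantile normalization 10 and 1, and with library sizes unscaled 16 and 0. The G-alpha gene GPA1 read 43.2, 47.5 and 43.1 RPKM against 67.6, 69.7 and 70.9 RPKM, a rise of 0.63 ± 0.05. The scaffold STE5 rose by 0.72 ± 0.05, the desensitising regulator SST2 by 1.26 ± 0.06 and the arrest factor FAR1 by 1.13 ± 0.10. STE12 rose by 0.61 ± 0.08. TEC1, which pairs with Ste12 at filamentation genes, read 58.9, 61.6 and 72.2 RPKM against 184, 157 and 156 RPKM, a rise of 1.35 ± 0.14. No value of the 2 groups overlapped for any of these genes, as held for 59.3% of all features.

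The end products rose most. All 4 agglutinin genes rose, with a median of 1.83, and 12 of 13 fusion genes rose, with a median of 1.26 and none fell. FIG1, a membrane protein of mating cells, read 0.667, 0.847 and 0.837 RPKM in wild type and 17.1, 17.7 and 20.1 RPKM in sac3∆. Its rise of 3.44 ± 0.10 (limma adjusted p = 2.76e-10) was the largest rise against wild type among the genes named. AGA1, the anchor subunit of a-agglutinin, read 6.49, 8.25 and 9.68 RPKM against 48.6, 58.5 and 57.8 RPKM, a rise of 2.62 ± 0.11. AGA2, its binding subunit, read 161, 159 and 165 RPKM against 665, 716 and 659 RPKM, a rise of 2.07 ± 0.06. Rises were also called for PRM1 (2.22), the membrane fusion factor of the windows above, PRM2 (1.65), FUS2 (1.68), FUS1 (1.65) and SAG1, the alpha-agglutinin gene (1.60).

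**Figure D4:**
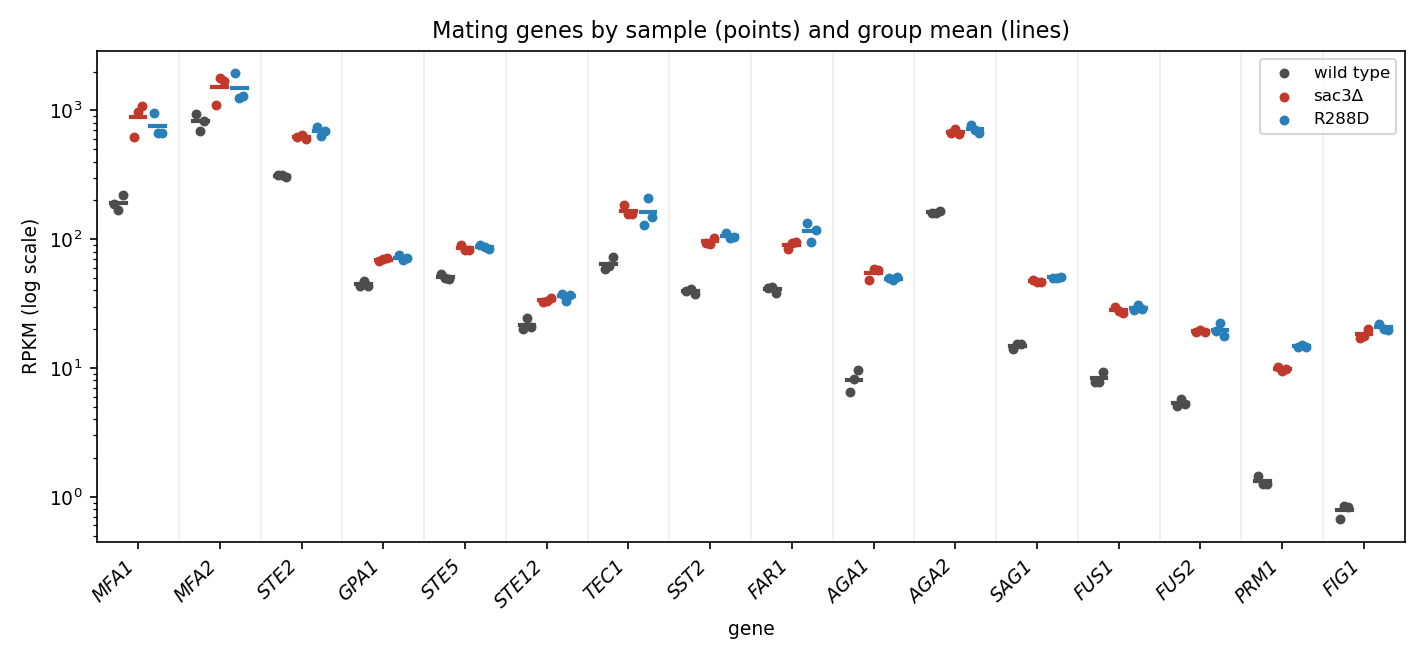
RPKM (log axis) of 16 mating genes in wild type, sac3∆ and R288D, points for samples and lines for group means, ordered from pheromone to fusion. All sac3∆ values lie above all wild type values of the same gene, with FIG1 moving from 0.667 to 0.847 up to 17.1 to 20.1 RPKM.

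Cytoplasmic ribosomal protein genes fell almost as a whole. Of 138 genes, 133 fell and none rose, with a median change of -0.73. Under other scalings 115 to 136 fell, and after quantile normalization the median was -0.33 and 1 rose. Both subunits took part, with 79 of 81 large and 54 of 57 small subunit genes falling. RPL9A read 1696, 1572 and 1543 RPKM in wild type and 692, 750 and 696 RPKM in sac3∆, a change of -1.17 ± 0.06 (limma adjusted p = 4.32e-08). RPS22B read 678, 581 and 578 RPKM against 309, 333 and 299 RPKM, a change of -0.96 ± 0.07. Many of these genes have a near-identical copy, so how reads were divided between copies is uncertain. Those with introns and those without fell alike in count, 87 of 90 and 46 of 48, with medians of -0.72 and -0.73.

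The activator genes IFH1, SFP1 and FHL1 moved the other way. Ifh1 is the coactivator that Fhl1 recruits to ribosomal protein promoters, and Sfp1 is a growth-responsive activator of the same genes. IFH1 (YLR223C, chromosome XII, 582233 to 585490) read 27.1, 28.3 and 25.4 RPKM in wild type and 101, 90.3 and 87.1 RPKM in sac3∆, a rise of 1.75 ± 0.07 (limma adjusted p = 6.4e-09). SFP1 rose by 0.61 ± 0.06, FHL1 by 0.42 ± 0.07 and the corepressor CRF1 by 0.71 ± 0.10. In all, 8 of 12 regulator genes rose and 1 fell, in a list not limited to activators. Ribosome assembly genes were divided, with 11 rising and 15 falling of 65, and the sign of that balance turned after quantile normalization (12 and 9) and with unscaled libraries (21 and 7). Of 43 mitochondrial ribosomal protein genes 18 rose and none fell, and the count of rises ran from 5 to 38 under other scalings.

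Sulfur amino acid genes fell. Met4, with Cbf1 at TCACGTG sites, drives sulfate uptake, sulfate reduction and the synthesis of methionine, cysteine and S-adenosylmethionine. The site, counted on both strands, lay upstream of 273 of 5988 genes (4.56%) and of 19 of the 25 sulfur genes in the table (76%), among them 12 of the 14 that fell (85.7%) and 1 of the 2 that rose (50%). MET3 and MET14 are shown as the genes of the opening steps of sulfate assimilation. Their windows are R64 chrX:455816-455929 (plus strand) and chrXI:439562-439659 (minus strand), with the site in capitals; TCACGTGA holds it on both strands.
MET3: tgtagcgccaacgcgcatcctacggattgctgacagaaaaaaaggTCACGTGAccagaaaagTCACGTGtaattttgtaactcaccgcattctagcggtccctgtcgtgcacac
MET14: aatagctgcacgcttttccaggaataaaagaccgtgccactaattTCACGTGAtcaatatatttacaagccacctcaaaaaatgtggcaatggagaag

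Of 24 tested sulfur genes 14 fell and 2 rose, beside 24.1% and 27.4% of all features. MET17, also in the list, averaged under 1 RPKM over the 12 samples and was not tested. Their median change was -0.50, and with library sizes unscaled 14 fell and 6 rose. MET3, ATP sulfurylase, read 110, 111 and 112 RPKM in wild type and 38.9, 34.6 and 32.4 RPKM in sac3∆, a change of -1.63 ± 0.07 (limma adjusted p = 1.38e-08). MET14, the kinase that follows it, read 138, 138 and 136 RPKM against 57.1, 65.6 and 57.9 RPKM, a change of -1.18 ± 0.05. The sulfate permease gene SUL2 fell by 1.03 ± 0.06. Among methionine and cysteine genes 8 of 9 fell. MET6, methionine synthase, read 2423, 2391 and 2280 RPKM against 723, 718 and 681 RPKM, a change of -1.74 ± 0.05 (limma adjusted p = 5.24e-10). SAM2, S-adenosylmethionine synthetase, read 842, 817 and 781 RPKM against 241, 248 and 251 RPKM, a change of -1.72 ± 0.05. SAM1 (-1.02), CYS3 (-1.22) and SAH1 (-1.08) fell as well. No value of the 2 groups overlapped for these genes, as held for 59.3% of all features. MET4 itself rose by 0.68 ± 0.04.

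One-carbon genes moved in both directions. Its glycine cleavage enzyme takes carbon from glycine in mitochondria, and 3 of its 4 subunit genes rose. GCV1 read 37, 33.4 and 35 RPKM in wild type and 117, 122 and 108 RPKM in sac3∆, a rise of 1.69 ± 0.06 (limma adjusted p = 1.17e-09). GCV2 rose by 1.41 ± 0.07 and GCV3 by 0.91 ± 0.08. LPD1, a subunit shared with pyruvate dehydrogenase, read 271, 261 and 251 RPKM against 160, 168 and 163 RPKM, a change of -0.67 ± 0.04. Among 11 folate genes 7 fell and 1 rose, with 4 to 9 falling under other scalings, and the values were -0.82 for MTD1, a cytoplasmic dehydrogenase, and 0.43 for SHM2, serine hydroxymethyltransferase.

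Nitrogen genes that work when good nitrogen sources run low rose in part. GATA factors such as Gln3 and Gat1 act on them at GATAAG sites, found upstream of 1364 of 5988 genes (22.8%) and of 25 of the 34 nitrogen genes (73.5%). Among them were 15 of the 19 that rose (78.9%) and 2 of the 3 that fell (66.7%). Of 34 tested genes 19 rose, 3 fell and 12 did not pass, with a median of 0.32. Rises were called for 3 of 4 proline, 2 of 2 arginine use and 6 of 7 regulator genes. They were called for 4 of 9 allantoin and urea, 1 of 4 GABA and 3 of 8 ammonium and glutamate genes. DAL1, DAL2, DAL3, DAL4 and UGA4, each with GATAAG sites upstream, did not pass, and DCG1 fell. PUT1, proline oxidase, read 27.5, 29.6 and 27.5 RPKM in wild type and 118, 107 and 98.8 RPKM in sac3∆, a rise of 1.89 ± 0.10 (limma adjusted p = 7.52e-08). DUR12 (DUR1,2), urea amidolyase, read 22.7, 26.5 and 24 RPKM against 67.7, 67.7 and 69.7 RPKM, a rise of 1.45 ± 0.06. The urea transporter DUR3 rose by 1.21 ± 0.11, the ammonium permease MEP2 by 1.03 ± 0.06, the arginine-degrading CAR2 by 0.83 ± 0.06 and GAT1 by 0.68 ± 0.08. GLN1, glutamine synthetase, read 1126, 1170 and 1076 RPKM against 756, 774 and 714 RPKM, a change of -0.59 ± 0.06 that missed the threshold after quantile normalization (-0.17).

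Uptake of peptides and amino acids moved with a single large rise. PTR2, the di- and tripeptide transporter, read 7.77, 7.27 and 7.24 RPKM in wild type and 37.7, 38.8 and 36.4 RPKM in sac3∆, a rise of 2.20 ± 0.05 (limma adjusted p = 4.14e-11). OPT1, the oligopeptide and glutathione transporter, read 63.7, 70 and 73.4 RPKM against 34.3, 33.7 and 35.7 RPKM, a change of -0.98 ± 0.06. All 5 genes of the Ssy1 amino acid sensor and its effectors rose, by 0.27 to 0.47, though 1 lost its call with sample medians set equal and 1 after quantile normalization. Of 19 permease genes 10 rose and 2 fell (6 and 2 with sample medians set equal), with AGP1 at 0.87 and BAP2 at 0.68.

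Fatty acid synthesis genes fell, and phospholipid genes fell in part. FAS1, the beta subunit of fatty acid synthase, read 808, 856 and 779 RPKM in wild type and 328, 345 and 352 RPKM in sac3∆, a change of -1.25 ± 0.07 (limma adjusted p = 6.53e-08). FAS2, the alpha subunit, fell by 1.03 ± 0.06, and ACC1, acetyl-CoA carboxylase, fell by 1.01 ± 0.05. OLE1, the delta-9 desaturase, read 752, 746 and 752 RPKM against 433, 444 and 405 RPKM, a change of -0.81 ± 0.05. In all 13 of 19 fatty acid genes fell and 2 rose, beside 24.1% and 27.4% of all features, with a median of -0.34.

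Ino2 and Ino4 activate phospholipid genes at an element with the core CATGTG, and the repressor Opi1 acts on them when inositol is present. The core, on both strands, lay upstream of 788 of 5988 genes (13.2%) and of 14 of the 25 phospholipid genes (56%), among them 8 of the 11 that fell (72.7%) and 2 of the 4 that rose (50%). INO1, inositol-3-phosphate synthase, is shown since, next to SAC3 itself, it had the largest of the named differences between sac3∆ and R288D. The window is R64 chrX:136061-136221 on the minus strand, with the core in capitals on either strand.
INO1: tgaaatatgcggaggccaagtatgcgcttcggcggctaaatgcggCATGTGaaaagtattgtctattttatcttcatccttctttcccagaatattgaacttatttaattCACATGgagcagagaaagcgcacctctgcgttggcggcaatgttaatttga

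INO1 read 100, 98.2 and 93 RPKM in wild type and 39.3, 42.4 and 47 RPKM in sac3∆, a change of -1.16 ± 0.08 (limma adjusted p = 6.12e-07). R288D read 318, 289 and 270 RPKM, above every wild type value. Of 25 phospholipid genes 11 fell and 4 rose, and with unscaled libraries the balance turned to 7 and 11. OPI3, a phospholipid methyltransferase, fell by 0.50 ± 0.06 and the phosphatidylserine synthase CHO1 fell by 0.47 ± 0.06. The inositol transporter ITR1 read 1008, 1010 and 981 RPKM against 822, 810 and 839 RPKM, a change of -0.28 ± 0.05. That change turned to a rise of 0.17 after quantile normalization, which passed (limma adjusted p = 0.044). It lost its call with unscaled libraries (-0.12).

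Genes of NAD synthesis and uptake fell in 10 of 16 cases and 1 rose, with a median of -0.27. Of all features 24.1% fell and 27.4% rose. NRT1, the nicotinamide riboside transporter, read 36.4, 38.1 and 36.2 RPKM in wild type and 19.9, 19.3 and 18.9 RPKM in sac3∆, a change of -0.90 ± 0.06 (limma adjusted p = 3.08e-07). TNA1, the nicotinic acid permease, fell by 0.65 ± 0.06. The groups were apart for both genes, as for 59.3% of all features.

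Iron uptake genes rose. Aft1 and Aft2 activate them at TGCACCC when iron is short, and this element lay upstream of 139 of 5988 genes (2.32%) and of 21 of the 30 iron genes (70%), with a like share of the 21 that rose (15, 71.4%). FIT2 and SIT1 are shown as a cell wall mannoprotein gene that retains siderophores and a siderophore transporter gene. The windows are R64 chrXV:1059220-1059451 and chrV:27424-27520 on the plus strand, with the element in capitals on either strand.
FIT2: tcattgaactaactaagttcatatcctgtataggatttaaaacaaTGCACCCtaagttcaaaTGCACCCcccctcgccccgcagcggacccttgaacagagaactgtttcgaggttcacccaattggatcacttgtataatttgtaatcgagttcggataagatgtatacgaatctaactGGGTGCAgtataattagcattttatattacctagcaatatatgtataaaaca
SIT1: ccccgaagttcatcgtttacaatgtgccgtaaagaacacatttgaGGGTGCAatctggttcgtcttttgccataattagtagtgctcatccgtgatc

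Of 30 iron genes 21 rose and 1 fell, with a median of 0.37. Of the 7 siderophore genes 6 rose. FIT3 read 52.2, 66.1 and 63.2 RPKM in wild type and 122, 111 and 115 RPKM in sac3∆, a rise of 0.94 ± 0.11 (limma adjusted p = 2.82e-05). SIT1 read 36.5, 42.4 and 40.9 RPKM against 70.8, 69.5 and 62.8 RPKM, a rise of 0.75 ± 0.06. FIT2 rose by 0.58 ± 0.07 and ARN1 by 0.87 ± 0.05. In reductive uptake 8 of 13 genes rose (5 after quantile normalization), among them the reductase FRE3 (1.05) and the multicopper oxidase FET3 (0.64), while the reductase FRE1 fell (-0.36). AFT1 read 35.6, 39.3 and 36.2 RPKM against 61.4, 60.1 and 59.5 RPKM, a rise of 0.69 ± 0.05.

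The other TREX-2 genes did not move together. CDC31, the centrin of TREX-2 and of the spindle pole body, read 21, 19.6 and 18.7 RPKM in wild type and 29.6, 32.5 and 38.7 RPKM in sac3∆, a rise of 0.73 ± 0.11 (limma adjusted p = 0.000167). THP1 rose by 0.19 ± 0.06 and SEM1 fell by 0.22 ± 0.07, and each lost its call after quantile normalization (0.06 and -0.01). The call was also lost for THP1 with sample medians set equal and for SEM1 with library sizes unscaled. THP1 also lost it without wild type replicate 1 or 2 (0.18 for both) and without sac3∆ replicate 1 or 2 (0.16 for both). SEM1 lost it without wild type replicate 1 or 3 (-0.19 and -0.21) and without sac3∆ replicate 1 or 3 (-0.20 and -0.22). SUS1 read 123, 113 and 105 RPKM against 122, 128 and 107 RPKM, a difference of 0.06 ± 0.08 that did not pass, though it did with library sizes unscaled (0.22). THP3, whose protein forms a related complex with Csn12, read 48.6, 50.2 and 52.3 RPKM against 16.6, 17.6 and 17.6 RPKM, a change of -1.49 ± 0.05 (limma adjusted p = 2.77e-09). CSN12 (YJR084W) differed by -0.11 ± 0.05 and did not pass. It did pass, as a fall, with sample medians set equal (-0.20) and after quantile normalization.

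Of 24 mRNA export genes 7 rose and 7 fell, shares close to the 27.4% and 24.1% of all features, and with library sizes unscaled 12 rose and 6 fell. YRA1, the export adaptor whose gene carries an intron, read 580, 549 and 543 RPKM in wild type and 1078, 1097 and 1001 RPKM in sac3∆, a rise of 0.92 ± 0.05 (limma adjusted p = 6.05e-08). NAB2, the poly(A)-binding export factor, read 105, 124 and 130 RPKM against 223, 212 and 197 RPKM, a rise of 0.81 ± 0.08. DBP5, the helicase that releases mRNA at the pore, read 217, 212 and 205 RPKM against 126, 133 and 120 RPKM, a change of -0.74 ± 0.06. SUB2, the helicase that brings Yra1 to mRNA, fell by 0.54 ± 0.05 and YRB1 fell by 0.64 ± 0.06.

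Mediator genes changed little. Of 25 genes 8 rose and 3 fell, beside 27.4% and 24.1% of all features, and all changes lay between -0.44 and 0.38. The balance turned to 4 and 7 with sample medians set equal, 4 and 6 after quantile normalization and 14 and 0 with unscaled libraries. Rises were called for the tail genes GAL11 (0.38) and MED2 (0.38) and the kinase module gene SRB8 (0.30), and a fall for the head gene SRB2 (-0.44), which lost its call with unscaled libraries (-0.28). The other 3 kinase module genes, SSN3 (CDK8) among them, did not pass and lay between -0.06 and 0.10.

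Small nuclear RNAs of the spliceosome rose in 4 of 5 cases while snoRNAs mostly did not pass, with 5 of 76 falling and none rising. Over the 80 tested RNAs with an SNR name 3 rose and 5 fell, and the balance turned to 10 and 4 after quantile normalization. SNR19 (U1) read 5025, 5069 and 4982 RPKM in wild type and 8627, 7897 and 8863 RPKM in sac3∆, a rise of 0.75 ± 0.09 (limma adjusted p = 4.01e-05). LSR1 (U2) read 15078, 14243 and 14024 RPKM against 21953, 22006 and 21037 RPKM, a rise of 0.58 ± 0.12. SNR7-L, a form of U5, rose by 0.90 ± 0.23, with its lowest sac3∆ value level with the highest of wild type. SNR14 (U4) rose by 0.66 ± 0.23, its groups overlapped, and the call was lost without wild type replicate 2 or 3 (0.52 and 0.64) and without sac3∆ replicate 2 or 3 (0.63 and 0.42). RPR1, the RNA of RNase P, read 5196, 4405 and 4638 RPKM against 7140, 7913 and 6495 RPKM, a rise of 0.60 ± 0.10.

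Core histone genes fell in 6 of 8 cases, with HTA2 at -0.53, but after quantile normalization 3 rose and 1 fell. These genes come in near-identical pairs, so reads may be shared between copies. Of 34 proteasome genes 26 fell and 1 rose, with a median of -0.20, but after quantile normalization 3 fell and 5 rose, and without library scaling 6 and 4. The riser was RPN4, the activator of proteasome genes, which read 130, 134 and 141 RPKM in wild type and 225, 196 and 203 RPKM in sac3∆, a rise of 0.62 ± 0.08 (limma adjusted p = 7.34e-05). Its binding element GGTGGCAAA lay upstream of 98 of 5988 genes (1.64%) and of 27 of the 34 proteasome genes (79.4%), with a like share of the 26 that fell (21, 80.8%). PRE2, a catalytic subunit of the core particle, fell by 0.35 ± 0.04.

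Cell cycle genes rose in 35 of 57 cases and fell in 4, beside 27.4% and 24.1% of all features. Their median was 0.32, with 30 to 44 rises under other scalings. The G1 cyclin gene CLN3 read 64, 75.1 and 68.9 RPKM in wild type and 115, 116 and 113 RPKM in sac3∆, a rise of 0.72 ± 0.06 (limma adjusted p = 2.37e-06). The Pho85 cyclin PCL2 rose by 0.91 ± 0.09. The polo kinase gene CDC5 read 43.8, 46.7 and 43.1 RPKM against 78.8, 78.6 and 77.8 RPKM, a rise of 0.80 ± 0.05. AMN1, a daughter cell gene that blocks mitotic exit, rose by 0.75 ± 0.05. SPC110, a spindle pole body component that is in none of the lists, read 20.5, 26.1 and 24.6 RPKM against 70.3, 66.1 and 80.4 RPKM, a rise of 1.57 ± 0.09.

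Genes tied to oxygen, heme and respiration fell and rose. YHB1, the nitric oxide dioxygenase, read 409, 411 and 411 RPKM in wild type and 102, 110 and 97.6 RPKM in sac3∆, a change of -1.98 ± 0.05 (limma adjusted p = 7.34e-11). CYC1, cytochrome c, read 135, 127 and 130 RPKM against 51, 54.9 and 43.2 RPKM, a change of -1.38 ± 0.10. INH1, the inhibitor of the mitochondrial ATPase, fell by 1.58 ± 0.07. ROX1, the repressor of hypoxic genes, read 50.2, 51.1 and 52.5 RPKM against 103, 112 and 103 RPKM, a rise of 1.03 ± 0.07. YHB1 and CYC1 were counted in the list called hypoxic, where membership does not mean that a gene rises when oxygen is low. Of its 23 tested genes 12 fell and 7 rose, beside 24.1% and 27.4% of all features. With sample medians set equal the counts were 13 and 3.

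In glucose sensing, STD1 and MTH1, the corepressors that keep hexose transporter genes off, rose by 0.90 ± 0.05 and 0.72 ± 0.12. HXK2, the main hexokinase, read 1562, 1569 and 1555 RPKM in wild type and 996, 1019 and 953 RPKM in sac3∆, a change of -0.66 ± 0.05 (limma adjusted p = 9.36e-07). Of 18 tested genes 8 rose and 1 fell, beside 27.4% and 24.1% of all features. In the cell wall GSC2, the alternative glucan synthase, read 40.6, 45.3 and 42.7 RPKM against 101, 99.5 and 116 RPKM, a rise of 1.28 ± 0.06. CWP1, a cell wall mannoprotein, read 260, 275 and 292 RPKM against 129, 98.4 and 87.7 RPKM, a change of -1.40 ± 0.15. GAS1, a glucanosyltransferase, fell by 0.74 ± 0.05. Over 46 cell wall genes 16 rose and 7 fell, beside 27.4% and 24.1% of all features. Their median of 0.04 was that of all features, and with sample medians set equal the counts were 12 and 16.

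RCK1, a kinase of the oxidative stress response, read 29.7, 34.3 and 47.7 RPKM in wild type and 184, 122 and 129 RPKM in sac3∆. Its rise was 1.94 ± 0.33 (limma adjusted p = 0.00043), a standard error above the median of 0.07 over all features, and the groups did not overlap.

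The direct contrast of sac3∆ with R288D asked where full loss of Sac3 differs from the point variant. Its differences use no wild type value, but the spread behind its p-values was estimated from all 12 samples. The contrast shares the 3 sac3∆ samples with the comparison above. SAC3 itself read 64.9, 62.5 and 63.8 RPKM in R288D. Of the 6124 features 84 were called (1.37%), 20 higher (0.327%) and 64 lower (1.05%) in sac3∆. Without R288D replicate 2 the calls numbered 468, 238 higher and 230 lower, and without sac3∆ replicate 1 they numbered 53, 11 higher and 42 lower. Fitted on these 6 samples alone, 4 were higher and 13 lower.

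Phospholipid genes were the largest share of any list in that contrast, 11 of 25, all lower in sac3∆. INO1 differed by -2.74 ± 0.08 (limma adjusted p = 1.86e-09) and ITR1, at 1453, 1438 and 1326 RPKM in R288D, by -0.77 ± 0.05. OPI3 read 719, 680 and 710 RPKM in R288D and 401, 417 and 462 RPKM in sac3∆, a difference of -0.72 ± 0.06. As deposited, for INO1, ITR1, OPI3 and PSD1 (-0.62) the R288D values lay above, and the sac3∆ values below, all 3 wild type values. The fall of ITR1 against wild type turned to a rise after quantile normalization. CHO1 was lower too (-0.55), and among the regulators INO2 (-0.53) and OPI1 (-0.34).

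Iron genes went the other way, with 7 of 30 higher in sac3∆ than in R288D and 1, FRE1, lower (-0.36). FIT2 read 44.9, 44.7 and 48 RPKM in R288D, below every wild type value, and 87.7, 83 and 76.8 RPKM in sac3∆, a difference of 0.83 ± 0.07 (limma adjusted p = 3.71e-05). FET3 was higher in sac3∆ by 0.36 ± 0.06. FIT3 (0.52), SIT1 (0.31) and FRE5 (0.84) also passed, but each lost its call without sac3∆ replicate 1 (0.48, 0.28 and 0.71). COS8 read 54.9, 60.3 and 52.7 RPKM in R288D against 92.9, 94.3 and 91.8 RPKM, a difference of 0.72 ± 0.06. FRE7 was lower in sac3∆ (-0.88), as was MF(ALPHA)1 (-1.13), which is scarce in both.

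Genes of the large changes against wild type also differed in degree. ZRT1 read 192, 207 and 171 RPKM in R288D and was lower in sac3∆, at -1.96 ± 0.07 (limma adjusted p = 1.07e-08), as was ZAP1, at -0.38 ± 0.06. ZPS1, at 6.58, 12 and 9.49 RPKM in R288D, differed by 0.05 ± 0.14 and did not pass. SAM2 read 495, 443 and 451 RPKM in R288D and was lower in sac3∆, at -0.90 ± 0.05, while MET3 differed by 0.13 ± 0.07 and did not pass. FAS2 (-0.39), MET6 (-0.35) and YHB1 (-0.39) were lower in sac3∆, as was FAS1 (-0.37), which lost its call without sac3∆ replicate 1 (-0.35). Of the 50 mating genes 3 differed, among them PRM1, which was lower in sac3∆ (-0.54). None of the 138 ribosomal protein genes passed in this contrast, which does not show that they were equal.

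**Figure D5:**
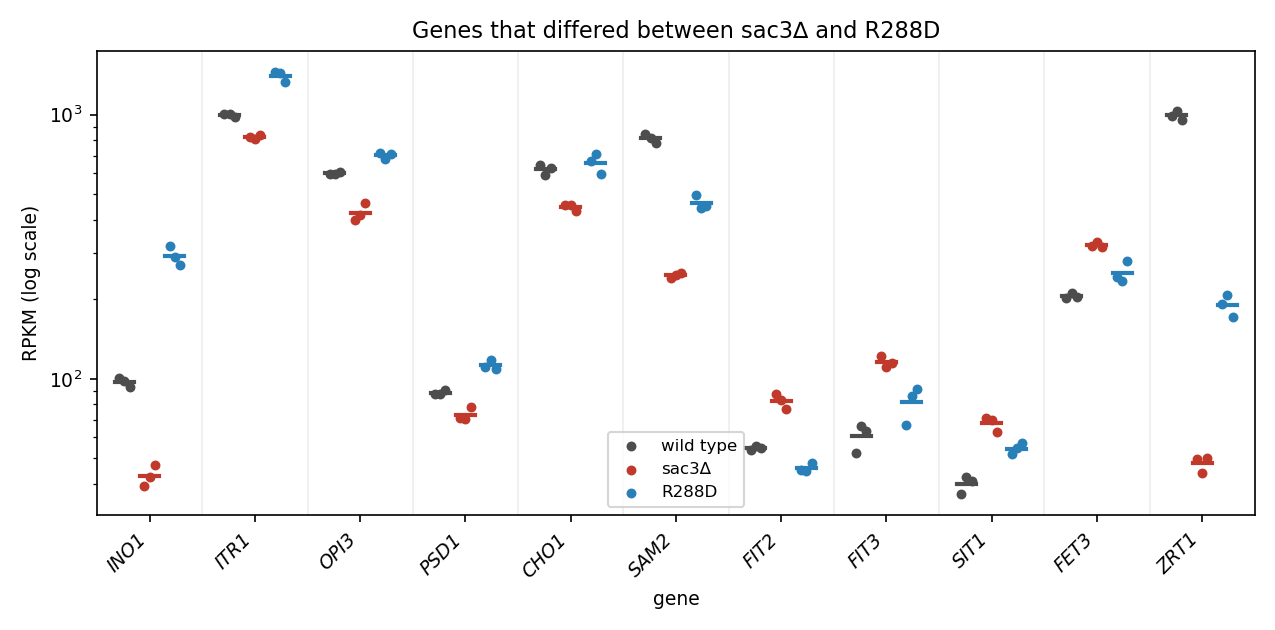
RPKM (log axis) of 11 genes called in sac3∆ against R288D, with wild type for reference, points for samples and lines for group means. In the deposited values INO1, ITR1 and OPI3 are above wild type in R288D and below it in sac3∆, and FIT2 is the reverse.

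Against cdk8∆, the strain without the Mediator kinase, 3924 features were called (64.1%), 2015 higher (32.9%) and 1909 lower (31.2%) in sac3∆. The largest differences higher in sac3∆ were RCK1 (4.45), the secreted glycoprotein YGP1 (4.23), the heat shock protein HSP12 (3.68), FMP48 (3.54) and CIP1 (3.46). RCK1 stood at 5.19, 6 and 5.51 RPKM in cdk8∆, below its wild type values, so sac3∆ and cdk8∆ lay on opposite sides of wild type. The largest lower in sac3∆ were ZPS1 (-4.83), the alcohol dehydrogenase ADH2 (-4.01), the peroxisomal oxidase POX1 (-3.89), FRM2 (-3.65) and COS12 (-3.62). ZPS1 read 317, 300 and 275 RPKM in cdk8∆ and COS12 38, 39 and 36.8 RPKM. ADH2 read 9.27, 5.21 and 6.92 RPKM in sac3∆ and 5.45, 4.95 and 14.4 RPKM in wild type, groups that overlapped.

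IFH1 and YRA1 also lay on opposite sides of wild type in the 2 deletions. IFH1 read 18.8, 18.4 and 18 RPKM in cdk8∆, lower than every wild type value, and was higher in sac3∆ by 2.27 ± 0.07. YRA1 read 325, 313 and 316 RPKM in cdk8∆ and was higher in sac3∆ by 1.73 ± 0.05 (limma adjusted p = 1.15e-10). PTR2, at 95.2, 95.8 and 95.6 RPKM in cdk8∆, was above wild type in both and lower in sac3∆, at -1.32 ± 0.05.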

How the data were processed

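The 12 samples, 3 per group, are from hot phenol RNA depleted of ribosomal RNA, per the labels' protocols. The deposited values are RPKM, which the authors scaled per exon length and library size. Per the submitters' processing notes the genome build was R64 and the tools were edgeR, limma, R 3.0.1, HTSeq 0.5.4p3 and TopHat2 2.0.9, without roles. The strand setting of the counting is not given in the sources used here, so reads of overlapping opposite genes cannot be told apart. Value times exon length fell on whole multiples of a step per sample (99.34 to 99.67% whole within 0.1 read, for values under 300 reads), which gave 16.18 to 22.44 M reads (M for mega) per sample. Library sizes were scaled by 0.864 to 0.892 in wild type and 0.969 to 0.999 in sac3∆, inferred from those steps. Of 7126 features 6162 matched R64, and 305 were at 0 in every sample.

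With log2(RPKM + 1), limma 3.58.1 in R 4.3.3 fitted 1 mean per group to all 12 samples (8 residual degrees of freedom), with eBayes and a mean trend. Tests were two-sided with Benjamini-Hochberg adjustment over the 6124 features that averaged 1 RPKM or more, at a threshold of 0.05. The script was tested on simulated data. Tables and plots used Python 3.11.15, pandas 2.3.3, numpy 2.4.6 and matplotlib 3.10.9. Motifs were searched as exact matches on both strands in the 500 bases before each annotated start.

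The gene lists and their members were chosen with earlier results of these data known, so lists are described by counts and medians without a test. Named were the TREX-2, Thp3-Csn12, Mediator kinase and zinc genes, the 15 largest rises and 15 largest falls whose groups did not overlap, up to 4 called and 2 uncalled members of each role of each list, and the 5 largest differences per direction in the other contrasts. STE12, TEC1, SAH1, FRE1, LSR1, SNR14, RPR1, FLO8, PSD1 and INO2 were chosen after their values were seen. Alternatives left out each replicate, used a replicate block, fitted only the groups compared or dropped the mean trend, took 0.1 or 5 as the pseudocount, 10 RPKM or nothing as the filter, and rescaled by medians or by quantiles. Unscaled library sizes were added after seeing the data.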

Additional observations from a re-analysis of the deposited data

Results flagged for a closer look

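In 8 genes the sac3∆ values and the R288D values lay on opposite sides of all 3 wild type values, and the direct contrast of the 2 mutants passed the limma threshold; only genes named in the text were looked at. SAC3 was lower in sac3∆ than in R288D by a log2 difference of -5.95, a direction that the deletion fixed in advance. R288D and wild type both carry the gene on a plasmid, and R288D read above the wild type samples. The sample titles name a tag for wild type only. Where R288D is set against wild type, substitution and tag cannot be told apart. The phospholipid genes INO1 (-2.74), ITR1 (-0.769), OPI3 (-0.723) and PSD1 (-0.616) were below wild type in sac3∆ and above it in R288D, as deposited. After quantile normalization ITR1 instead rose in sac3∆ against wild type (0.17, limma adjusted p = 0.044). FIT2 (0.832), FRE5 (0.836) and COS8 (0.724) were above wild type in sac3∆ and below it in R288D. FRE5 stood at 3.11 RPKM or less in every one of these 9 samples.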

How the results depend on the processing

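Of 129 genes followed against wild type, 119 kept their direction and their side of the threshold in every alternative run. The calls of sac3∆ against wild type ran from 2788 to 2943 without single replicates (1484 to 1557 higher, 1304 to 1386 lower) and from 2849 to 3653 otherwise. With library sizes unscaled, an alternative chosen after seeing the data, 2809 were higher and 844 lower, and against cdk8∆ 1173 were higher and 3127 lower. Calls against R288D ran from 53 to 468 without single replicates (11 to 238 higher, 42 to 230 lower), and with only the 2 groups compared they were 17, 4 higher and 13 lower. Calls against cdk8∆ ran from 3513 to 3708 without single replicates (1801 to 1916 higher, 1712 to 1806 lower). List members called ran from 547 to 574 without single replicates, beside 590, and from 553 to 636 otherwise. STE3, which did not pass, changed sign with unscaled libraries (0.12) and ran from -0.091 to 0.095 without single replicates. ITR1 turned to 0.17 after quantile normalization, SUS1 to -0.030 with medians set equal, and YJR084W to 0.044 with unscaled libraries. ZPS1 against R288D, which did not pass, ran from -0.16 to 0.23 without single replicates. The cause of these moves was not tested.

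Same-numbered wild type and sac3∆ samples did not deviate together (r of -0.077, -0.10 and 0.0071), so the numbers were not taken to pair samples. With the replicate block, 1651 features were higher and 1434 lower against wild type, and THP1 lost its call (adjusted p = 0.0502, beside 0.0303). At depths of 16.18 to 22.44 M reads, transcripts near 1 RPKM rest on few reads.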

Other observations

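Several further lists were counted, beside 27.4% of all features higher and 24.1% lower. Of 17 weak acid response genes 9 rose and 1 fell. Among the risers was PDR12, the transporter that exports weak organic acids. It read 50.7, 54.6 and 48.7 RPKM in wild type and 83.8, 83.4 and 91.9 RPKM in sac3∆ (log2 change 0.74 ± 0.06, limma adjusted p = 1.37e-06). Thiamine genes rose in 6 and fell in 1 of 16 cases, and after quantile normalization in 3 and 2. Of 26 phosphate genes 7 rose and 9 fell, a balance that turned to 12 and 4 with library sizes unscaled. Of 21 reserve sugar genes 6 rose and 3 fell, a share of rises close to that of all features, and the rises numbered 3 with sample medians set equal and 10 after quantile normalization, with GAC1, a glycogen phosphatase subunit, at 0.63. Gluconeogenesis genes rose in 4 and fell in 1 of 21 cases (7 and 1 with library sizes unscaled, 4 and 3 under the other scalings), among them PCK1 (0.62), whose values of 7.58, 6.24 and 7.24 RPKM in wild type and 12.3, 11.5 and 10.2 RPKM in sac3∆ did not overlap. Galactose genes (2 higher and 1 lower of 8), copper genes (none higher and 2 lower of 7) and aryl alcohol and nitroreductase genes (2 higher and none lower of 8) held few calls, and each of those balances changed under another scaling.

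RRN3 and RRN11, which serve RNA polymerase I in ribosomal RNA transcription, rose while most ribosomal protein genes fell. RRN3 read 15.4, 15.3 and 12.4 RPKM in wild type and 31.8, 35.9 and 39.5 RPKM in sac3∆ (1.26 ± 0.10, limma adjusted p = 1.99e-06). RRN11 read 8.85, 9.97 and 10.1 RPKM against 21.3, 23.6 and 25.9 RPKM (1.21 ± 0.12). Of 10 tested features annotated as pseudogenes 7 rose and none fell, with a median of 0.56, among them FLO8, which is a pseudogene in the reference strain, at 0.49 ± 0.06. Of 369 tested features with no reference entry 27 rose and 51 fell.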
